A study of Homo sapiens with 12 samples.

Results

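Regions that gained an ATAC-seq peak after ER stress in all 3 lines of the AML cell model KO-52 were taken from 6 peak lists. A region counts as gained in all 3 lines if it held a peak in each of the 3 tunicamycin lists (EV, p42 and p30) and no peak in any of the 3 DMSO lists. Peaks on chromosomes 1 to 22 and X that shared at least 1 bp were merged into 355051 regions, and 716 of these, 0.202%, met the rule. The reverse pattern, a peak in all 3 DMSO lists and in none of the tunicamycin lists, was met by 1793 regions, 0.505% of all. The gained regions were chosen by the presence and absence of called peaks, so their peak heights are given here as a description only.

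KO-52 cells come from an acute myeloid leukemia (AML) in which both copies of CEBPA are mutated. They were transduced with an empty vector (EV), with p42, the full-length CEBPA isoform, or with p30, the shorter isoform that lacks the N-terminal part, and each line was kept in DMSO or treated with tunicamycin (Tm) at 2 µg/mL for 8 h. All 3 lines share the CEBPA mutations of KO-52. For long-term expression the study's methods describe p42 and p30 fused to ERT2, cells sorted for GFP, and 4-hydroxytamoxifen given to the fusion lines and to the EV controls alike. Each of the 6 conditions had 2 replicates of 50000 nuclei, and the deposited lists pool both replicates. No count or share below therefore has a replicate spread, and no test between conditions was made. The EV cells measure the response without added CEBPA, and the p42 and p30 cells ask whether a region opens whichever isoform is added. The paper describes p30 as the functional CEBPA that remains in biallelic mutants, so EV cells are not taken here as free of CEBPA.

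Tunicamycin blocks the first step in the assembly of N-linked glycans, so that unfolded glycoproteins accumulate in the ER. The unfolded protein response then starts from ER sensors: PERK phosphorylates eIF2α and allows translation of the transcription factor ATF4, IRE1 splices XBP1, and ATF6 is cut to release an active factor. ATF4 is a bZIP protein that forms dimers with C/EBP family members and binds composite sites called C/EBP-ATF response elements (CARE), which join an ATF-type part to a C/EBP-type part. In ATAC-seq the transposase Tn5 inserts adapters into DNA that it can reach, and the sequenced fragments pile up over open chromatin.

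The sequence around the summits of the gained regions was read from hg38, since it played no part in the choice of the regions. The letters TGATGCAA, the core of a CARE, were searched on both strands within 100 bp of the centre summit (the middle one of the summits in the lists that hold the region). They were present in 50 of the 716 gained regions. The sites in the 10 strongest such regions are printed 5′ to 3′ on the strand that carries the core, with the core in capitals and 10 bases on each side, each under the name of the nearest protein-coding gene:
DCUN1D5 site, chr11:103028502-103028529, plus strand: ctgagaacacTGATGCAAttaggggaaa
EYS site, chr6:64985119-64985146, plus strand: gcaattgaacTGATGCAAtcacatgtca
LONP2 site, chr16:48300492-48300519, minus strand: acttgctggaTGATGCAAtggatctgta
DIAPH3 site, chr13:59681818-59681845, plus strand: ggtggagctcTGATGCAAgctcaagtaa
PLSCR1 site, chr3:146562038-146562065, plus strand: caggtcatgcTGATGCAAgaaggagaca
NFE2L1 site, chr17:48055920-48055947, plus strand: taccacaggcTGATGCAAgcctggccac
APOOL site, chrX:84956489-84956516, minus strand: ctccctagggTGATGCAAcatgttatca
AIMP2 site, chr7:6016182-6016209, minus strand: gagagctggcTGATGCAActtacttgta
GRAMD2B site, chr5:126120029-126120056, minus strand: aagagttggaTGATGCAAcagcttgtaa
SLC29A3 site, chr10:71266582-71266609, minus strand: tgcaaaaggcTGATGCAAgctagaagga

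The wider windows of the 3 strongest of these regions, 200 bp each, show where the core (capitals, TTGCATCA where it lies on the minus strand) sits around the summit at the middle of the window:
DCUN1D5 window, chr11:103028442-103028641, plus strand: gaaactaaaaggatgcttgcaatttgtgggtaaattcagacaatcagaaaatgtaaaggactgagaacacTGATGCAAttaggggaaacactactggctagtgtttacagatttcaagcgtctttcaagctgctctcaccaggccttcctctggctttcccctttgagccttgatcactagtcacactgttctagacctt
EYS window, chr6:64985038-64985237, plus strand: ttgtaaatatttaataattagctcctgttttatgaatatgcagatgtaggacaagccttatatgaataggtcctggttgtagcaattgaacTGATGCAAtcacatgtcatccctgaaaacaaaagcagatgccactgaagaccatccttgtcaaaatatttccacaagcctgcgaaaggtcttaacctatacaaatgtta
LONP2 window, chr16:48300391-48300590, plus strand: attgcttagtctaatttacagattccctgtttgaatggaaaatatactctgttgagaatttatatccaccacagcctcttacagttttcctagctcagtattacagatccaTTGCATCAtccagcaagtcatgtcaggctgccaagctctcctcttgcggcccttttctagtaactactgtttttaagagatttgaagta

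The ATF4 core was found in 6.98% of the gained regions (50 of 716, 95% Wilson interval 5.34 to 9.09%), and in 1.25% of all merged regions (4442 of 355051). Among the regions lost in all 3 lines it was found in 0.614% (11 of 1793, interval 0.343 to 1.10%), and among those open in all 6 lists in 0.886%. The share in the gained regions was 5.58 times that of all regions, and its interval did not overlap that of any of these other sets. The intervals cover the counting of regions and neither library nor biological variation. Read the other way, 1.13% of the regions with the core were gained in all 3 lines (50 of 4442) and 0.190% of the regions without it (666 of 350609), beside the 0.202% of all regions.

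The share went with the number of lines in which a region was gained. It was 1.36% (587 of 43138) where the region was called in 1 tunicamycin list and nowhere else, 2.22% (106 of 4779) in 2 tunicamycin lists and no DMSO list, and 6.98% in all 3. For the mirror patterns in DMSO it was 1.3% in 1 list, 0.552% in 2 and 0.614% in 3. Within the regions gained in 1 line alone it was 0.780% for EV, 1.99% for p42 and 1.10% for p30, and the p42 interval (1.80 to 2.21%) lay above the other two. Regions with a peak in the p42 DMSO list alone held the core in 1.81% (855 of 47299), against 0.558% for EV DMSO alone and 0.511% for p30 DMSO alone. Regions shared by the p42 DMSO list and 1 other DMSO list held it less often, at 0.783% with EV and 0.511% with p30. Regions gained in EV and p42 (1.87%, interval 1.31 to 2.68%) were level with those gained in EV and p30 (1.92%, 1.39 to 2.63%). Those gained in p42 and p30 held it in 3.1% (40 of 1301, 2.27 to 4.16%), and the intervals of these pairs overlap.

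**Figure D1:**
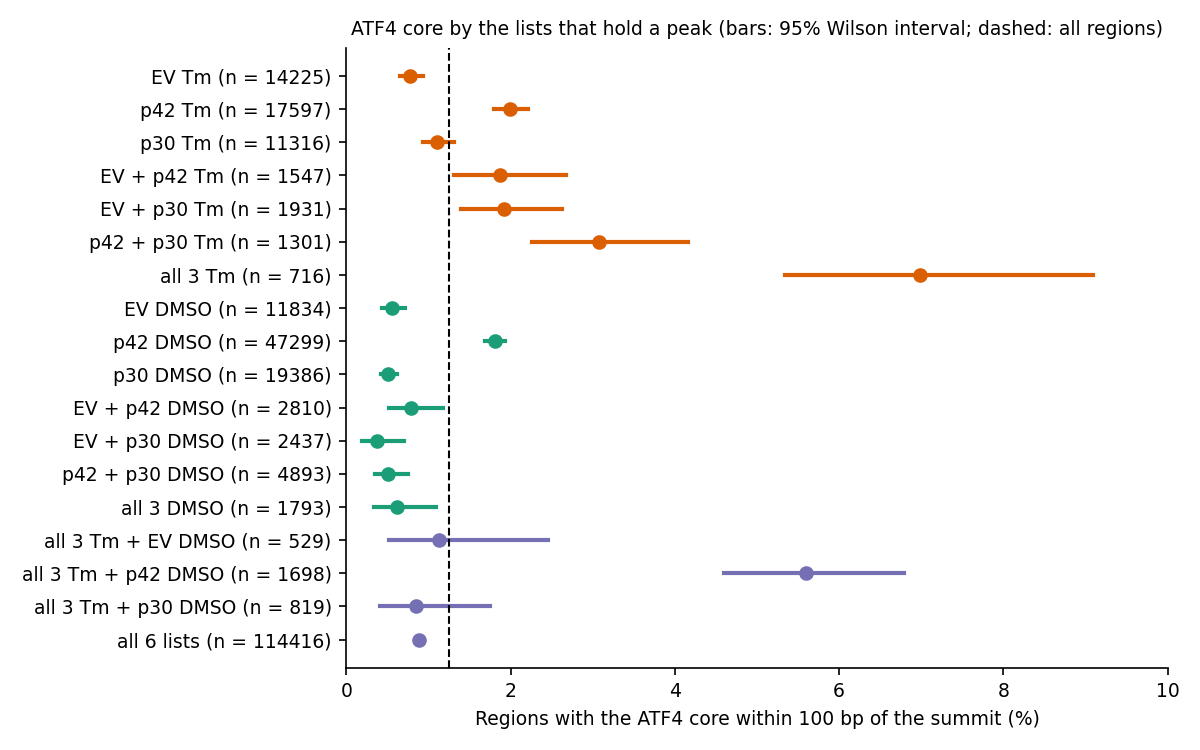
Share of regions with the ATF4 core within 100 bp of the summit (horizontal axis, %) by the exact set of lists that hold a peak, with the number of regions in brackets, 95% Wilson intervals as bars and the share of all merged regions, 1.25%, as a dashed line. The regions in all 3 tunicamycin lists and no DMSO list (6.98%) and those with the p42 DMSO peak in addition (5.59%) stand to the right of the other patterns.

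The regions just outside the rule show the same split by isoform. A peak in all 3 tunicamycin lists and in 1 DMSO list was found for 3046 regions, and in 1698 of them the DMSO list was that of p42, in 819 that of p30 and in 529 that of EV. The p42 DMSO list was also the deepest, at an estimated 29980000 tags. With the p42 DMSO peak the share of the ATF4 core was 5.59% (95 of 1698), with that of EV 1.13% (6 of 529) and with that of p30 0.855% (7 of 819). The part of list depth in these shares was not tested. The 3 strongest of these regions, by the lowest −log10 q over the 3 tunicamycin lists, all had their DMSO peak in p42 cells. They lay in introns, with VNN2, a pantetheinase, as the nearest gene (22, 26 and 21 tags at the summit in the EV, p42 and p30 tunicamycin lists and 20 in p42 DMSO), with NEK5, a kinase (18, 18 and 16 tags, and 9 in p42 DMSO), and with RTN3, an ER-shaping reticulon (15, 21 and 14 tags, and 11 in p42 DMSO).

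Within the 50 regions with the ATF4 core, each core was single. Its middle lay at a median of 23.5 bp from the centre summit, against 38 bp for the core-holding regions among all merged regions and 36 bp among those gained in 1 line alone. The centre summit of a gained region is the middle one over the EV, p42 and p30 tunicamycin lists. In a region gained in 1 line alone it is the only summit. The part of this difference in the distances was not tested. Within 50 bp of the summit lay 40 of the 50 cores. The core was within 25 bp of the summit in 50% of the gained regions that held it (25 of 50, interval 36.6 to 63.4%) and in 35.1% of all regions that did (1558 of 4442, interval 33.7 to 36.5%). Among the regions gained in 1 line alone it was 37.1% (218 of 587, interval 33.3 to 41.1%), which overlaps the interval of the gained regions.

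**Figure D2:**
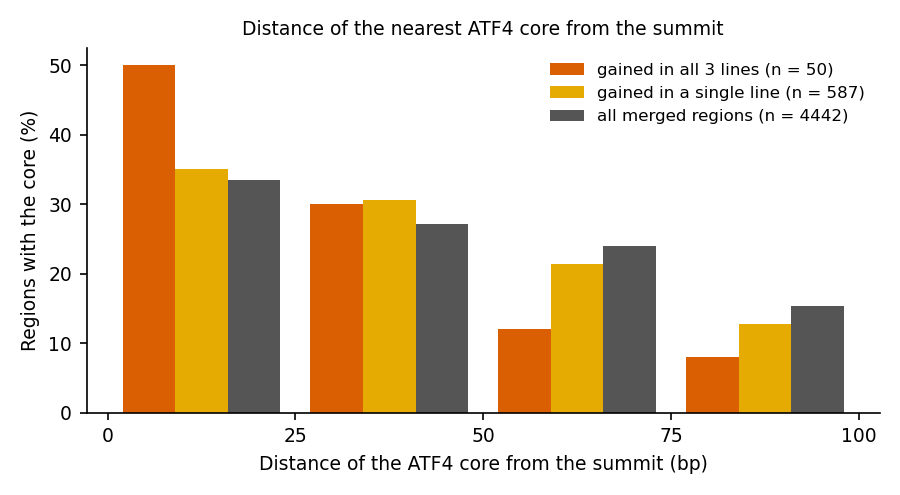
Distance between the middle of the nearest ATF4 core and the centre summit (horizontal axis, in bins of 25 bp) as a percentage of the regions that hold the core, for the 50 gained in all 3 lines, 587 gained in a single line and 4442 of all merged regions. In the first bin stand 50% of the gained regions and 33.5% of all regions, where a core at exactly 25 bp counts in the second bin.

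The strongest region of the whole set was one of the 50. It lay in intergenic DNA on chr11:103028375-103028633, 54.3 kb from the nearest start of DCUN1D5, which encodes a cofactor of cullin neddylation, and had 13 tags at the summit in EV, 16 in p42 and 13 in p30. A tag is a sequenced fragment end extended by MACS2, and the count of tags stacked at the summit was recovered from the deposited fold and p-value. The counting intervals of these 3 values overlap (exact Poisson, 6.92 to 22.2 tags for a count of 13 and 9.14 to 26.0 for 16), so the heights in the 3 lines were not distinguishable at this depth. The second strongest was in an intron of EYS, on chr6:64985085-64985374, with 12, 16 and 15 tags. The other core-holding region among the 10 strongest was in an intron of LONP2, which encodes a peroxisomal protease, on chr16:48300367-48300573, with 14, 9 and 10 tags.

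Over the 50 regions, summit tags ranged from 4 to 17 in EV (median 7), from 4 to 16 in p42 (median 8) and from 4 to 17 in p30 (median 7). The other 666 regions had a median of 7 tags in each list, which is the height of the core-holding regions to within 1 tag. When all gained regions were ranked by their lowest −log10 q and divided into 4 groups of 179, the core was in 10.6% of the strongest group (19 regions, interval 6.90 to 16.0%), in 5.59% of each of the next 2 (10 regions each) and in 6.15% of the weakest (11 regions). These intervals overlap. No line was highest throughout. Among the 50 regions EV held the highest count in 13, p42 in 16 and p30 in 8, and the rest were tied.

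By position, 50% of the core-holding regions lay in introns and 14% within 1000 bp of an annotated start, against 47.6% and 17.0% of the other 666. They had 50 different nearest protein-coding genes on 20 chromosomes, and 9 were within 10 kb of a protein-coding start and 13 more than 100 kb from one. A DMSO peak within 500 bp was found for 10 of them (20%), against 219 of the other 666 (32.9%). The region at NFE2L1 lay inside the gene, with its middle 9 bp upstream of an internal annotated start (chr17:48055831-48056055). NFE2L1 encodes an ER-anchored transcription factor that activates proteasome genes. It had 9 tags in EV, 16 in p42 and 12 in p30, the nearest DMSO peak was 4248 bp away, and its window held the NF-kB letters as well as the ATF4 core. The region nearest to AIMP2, which encodes a scaffold of the aminoacyl-tRNA synthetase complex, had 8, 12 and 10 tags and lay 6.73 kb downstream of the nearest protein-coding start. NFE2L1 and AIMP2 were picked for description after their values were seen.

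The AP-1 letters, TGACTCA, are bound by FOS-JUN dimers. They were the most frequent of the 20 motifs in the gained regions, at 11.6% (83 of 716, interval 9.45 to 14.1%), while all regions had 9.53%, the lost regions 10.1% (8.79 to 11.6%) and the regions gained in 1 line alone 8.57% (8.31 to 8.84%). In the 177 gained regions with 8 or more tags in each tunicamycin list the share was 7.34% (interval 4.34 to 12.2%). The share was thus above that of the regions gained in 1 line alone by its interval, and not resolved from that of all regions or of the lost ones. Of the regions with the ATF4 core, 3 also held the AP-1 letters. Beside the ATF4 windows above, the strongest region with AP-1 letters is printed for comparison, with these letters in capitals. It lay in an intron of WDFY2 with DHRS12 as the nearest start:
DHRS12 window, chr13:51759324-51759523, plus strand: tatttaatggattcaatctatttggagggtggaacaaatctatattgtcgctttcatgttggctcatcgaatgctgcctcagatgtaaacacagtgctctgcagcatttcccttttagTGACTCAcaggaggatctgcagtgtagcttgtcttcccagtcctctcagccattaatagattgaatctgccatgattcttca

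The region at DHRS12, which encodes a dehydrogenase/reductase, had 10 tags in EV, 9 in p42 and 8 in p30. The next, nearest to GRAMD2B, had 12, 8 and 12 tags and held the ATF4 core too.

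The NF-kB letters (the consensus of the NF-kB family with 1 free base) were in 8 gained regions (1.12%, interval 0.567 to 2.19%) and in 0.230% of all regions, 0.248% of those gained in 1 line alone and 0.112% of the lost regions. The 8 regions were weak, at medians of 6.5 tags in EV, 6.5 in p42 and 5.5 in p30, with NFE2L1 as the strongest. Of the 177 regions with 8 or more tags in every tunicamycin list, 1 held them (0.565%, interval 0.0998 to 3.13%). The other 7 regions had under 8 tags in at least 1 list, near the calling limit. The NF-kB motif was singled out after its values were seen.

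The letters for the other branches of the unfolded protein response were rare in the gained regions as in all regions. The UPRE letters (TGACGTGG), which XBP1 and ATF6 bind, were in 2 gained regions, 0.279% against 0.251% of all. One lay inside NT5DC2 (18, 16 and 16 tags in EV, p42 and p30), with its middle 0.101 kb upstream of an internal start. The other was in an intron of CAMTA1, a transcription factor gene (6, 6 and 4 tags). The ERSE letters (CCAAT and CCACG at a spacing of 9 bases), found at promoters of ER chaperone genes, and the related ERSE-II (ATTGG and CCACG separated by 1 base) were each in 0 of 716 regions, which allows a share of up to 0.419% if 3 counts are taken as the limit of a count of 0, or 0.534% by the Wilson interval, for counting error alone. They were in 0.0124% and 0.0107% of all regions, which is below what 716 regions can show. The CRE letters (TGACGTCA) were in 1 region (0.140%, interval 0.0247 to 0.787%), against 0.221% of all regions. It lay in an intron outside any protein-coding gene, 330 kb upstream of the nearest protein-coding start, that of DUSP4 (7, 8 and 8 tags). The symmetric C/EBP letters TTGCGCAA were in 0 of 716 regions, with the same Wilson limit of 0.534%, against 0.0822% of all. The letters TTGCACAA were in 6 (0.838%, interval 0.385 to 1.82%, against 1.48% of all). The strongest of the 6 were nearest to LTBP1, a regulator of latent TGF-beta (9, 10 and 11 tags), LRBA, a vesicle-trafficking protein (9, 9 and 6 tags), and MAPRE2, a microtubule-end protein (8, 7 and 6 tags). The LRBA region also held the ATF4 core, and 2 regions held both motifs.

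The remaining motifs separated the gained regions from open chromatin at large in the other direction or not at all. CTCF core letters (AGGGGGC) were in 3.07% of gained regions (interval 2.04 to 4.61%), 4.94% of all and 8.05% of those open in all 6 lists. The regions gained in 1 line alone were level with the gained regions, at 3.06% (1318 of 43138), so this share does not set the gained regions apart. ETS letters (ACCGGAAGT) and NRF1 letters, both typical of housekeeping promoters, were in 0 of 716, against 0.113% and 0.364% of all. The Wilson interval of 0 of 716 reaches 0.534%, above both, so neither is resolved from all regions. PU.1 letters (GAGGAAGT), for the myeloid master regulator SPI1, were in 6.98% against 6.88%, but in 1.13% (2 of 177, interval 0.310 to 4.03%) of the gained regions with 8 or more tags in every tunicamycin list. RUNX letters (TGTGGTTT) were in 4.89% against 4.62%. GATA letters (AGATAAG) were in 2.79% against 3.20%. The E-box (CACGTG), NFY, ISRE, HSE and MARE letters were likewise no more frequent than in all regions, with the E-box in 2.79%, NFY in 1.68%, ISRE in 3.21%, HSE in 0.14% and MARE, which can include the AP-1 letters, in 0 of 716. Each motif was searched on both strands. Median GC content of the window was 44% in the gained regions, 46% in all regions and 47% in the lost ones.

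The gained regions were low peaks. Summit tags ranged from 4 to 27 in the EV tunicamycin list, from 4 to 23 in p42 and from 4 to 30 in p30, with a median of 7 in each list, whereas the median peak of each list had 11. The lowest count called in any list was 4 tags, so the 83 gained regions whose lowest count was 4 sat on the calling limit. In 177 regions (24.7%) every one of the 3 counts was 8 or more, and in 106 it was 10 or more. For the lost regions, 14.8% had 8 or more in all 3 DMSO lists. A count of 7 has an exact Poisson interval of 2.81 to 14.4, so that a region with 7 tags after tunicamycin and under 4 in DMSO would not be distinguishable by counts of this size. The absence of a peak is not a measurement of closed chromatin.

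**Figure D3:**
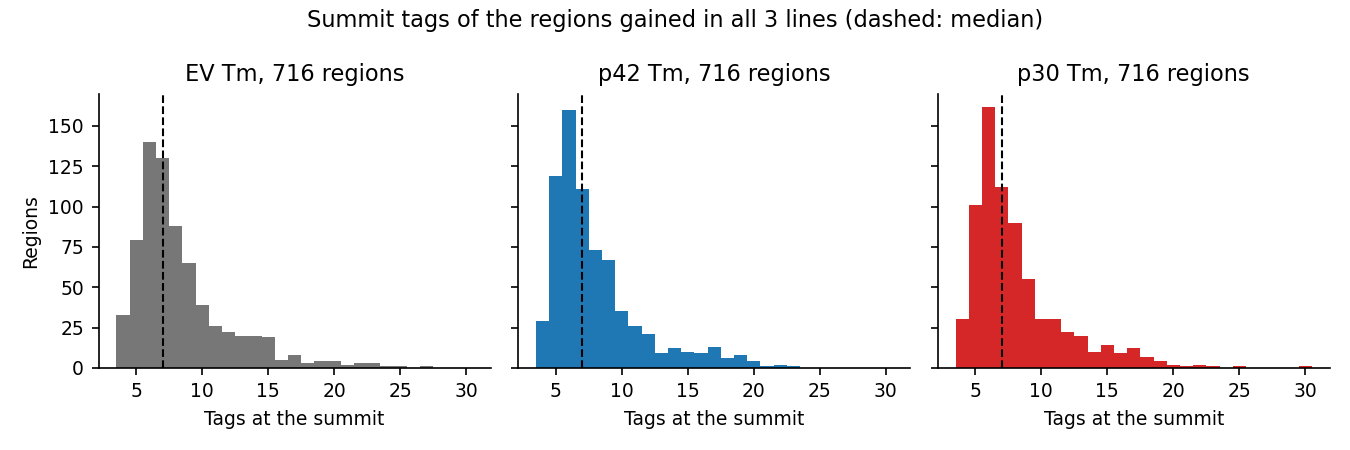
Tags at the summit (horizontal axis) of the 716 regions gained in all 3 lines, in bins of 1 tag, in the EV, p42 and p30 tunicamycin lists, with the number of regions on the vertical axis and the median of 7 as a dashed line. In all 3 lists the counts begin at 4, the lowest count called, and the highest are 27, 23 and 30.

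No line had the highest count in most regions. EV had the highest count in 216 regions, p42 in 156 and p30 in 156, with 188 tied. The estimated depths of the tunicamycin lists were 25130000 tags for EV, 25440000 for p42 and 23080000 for p30, and those of the DMSO lists ranged from 22250000 to 29980000. The summits of the 3 lists lay within 50 bp of each other in 455 regions (63.6%), with a median spread of 41 bp against 37 bp for regions open in all 6 lists. The gained regions had a median width of 134 bp (64 to 487), against 361 bp for the regions open in all lists.

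Few of the regions gained in a line were shared by all. A peak after tunicamycin without one in DMSO was found in 41468 regions of EV cells (11.7% of all), 32219 of p42 cells (9.07%) and 30378 of p30 cells (8.56%), while 10.1%, 21.6% and 15.2% of all regions lost their peak in EV, p42 and p30. The 716 shared regions made up 1.73% of the gained regions of EV, 2.22% of those of p42 and 2.36% of those of p30. At the same time 43138 regions had a single peak, in 1 tunicamycin list. These shares follow from presence and absence of peaks, which chose the regions.

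Besides the 3 with an ATF4 core, the 10 strongest regions lay in the following places. Those in transcribed DNA were in an exon of TBC1D31, a centriolar satellite protein (12, 11 and 12 tags in EV, p42 and p30), in an intron of EEFSEC, the selenocysteine elongation factor, with RUVBL1 as the nearest start (11, 11 and 17), in an intron of DYSF, a membrane repair protein highly expressed in monocytes (17, 17 and 22), and in an exon within ARL15, a small GTPase gene (15, 12 and 13). The intergenic ones were 12.3 kb from the start of SEMA7A, a membrane-anchored semaphorin (22, 19 and 19), 55.2 kb from DACH1, a transcription factor gene (15, 12 and 10), and 28.8 kb from ST6GAL1, a sialyltransferase (10, 9 and 10). The region in ARL15 was 144 bp from a DMSO peak and the one at SEMA7A 632 bp, while the other 5 of these 7 had none within 1000 bp. At the other end, the region 1.46 kb past the 3′ end of WARS1 had a lowest −log10 q of 1.33, next to the authors' limit of 1.3.

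Of the 716 regions, 120 (16.8%, interval 14.2 to 19.7%) lay within 1000 bp of a transcription start of GENCODE release 44, 18 in other exons (2.51%), 342 in introns (47.8%) and 236 (33.0%) between genes. The promoter share was 14.8% among all merged regions, 13.9% among the lost regions, 23.2% among those open in all 6 lists and 10.3% (10.0 to 10.6%) among those gained in 1 line alone, so the gained regions stood above the last set and not apart from the first. The median distance to a protein-coding start was 24.1 kb, against 24.2 kb for all regions. A DMSO peak lay within 500 bp of 229 gained regions (32.0%), so that they adjoined chromatin already called open in DMSO. No such neighbour was found for 487 of the 716 gained regions. For the lost regions, 1430 of 1793 had no tunicamycin peak within 500 bp. Near a start a DMSO neighbour was usual: of the 92 gained regions within 1000 bp of a protein-coding start, 61 (66.3%) had a DMSO peak within 500 bp, against 26.6% of the intronic and intergenic ones. The ATF4 core was in 4.37% of the regions with such a neighbour and in 8.21% of those without (40 of 487). The regions were spread over 674 nearest genes, and 3 genes were nearest to 3 or more: GPC5, a glypican (4 of the 851 merged regions nearest to it), DIAPH3, a formin (3 of 341), and GADL1, a decarboxylase (3 of 61).

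Genes of the unfolded protein response and ER quality control were next read out. Of 27 listed genes, 6 (22.2%, interval 10.6 to 40.8%) had a gained region within 50 kb of a start, while 4.09% of all 19962 protein-coding genes did. Lost regions were found near 3 of the 27 (11.1%), where 10.2% of all genes had one. Within 1000 bp of a start 1 of the 27 had a gained region, against 0.491% of all genes. The 27 genes had 626 merged regions within 50 kb of their starts, and 6 of these were gained in all 3 lines. No test was made, since the list is short and was written with results of these data known.

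By tags in the p42 list, the highest of the 6 were at HSPA5, HERPUD1 and SDF2L1 and lay outside the main promoter. By the lowest −log10 q over the 3 lists, SEC24D came first (4.05), before HERPUD1 (3.43), SDF2L1 (3.03) and HSPA5 (2.93). HSPA5 encodes BiP, the chief ER chaperone of the HSP70 family. Its region (chr9:125234091-125234366) lay 0.624 kb past the 3′ end of the gene, with 14 tags in EV, 20 in p42 and 10 in p30, and the nearest DMSO peak was 139 bp away. HERPUD1 encodes a membrane protein of ER-associated degradation. Its region (chr16:56946761-56947106) lay 2.07 kb past the 3′ end, with 13 tags in EV, 19 in p42 and 11 in p30, and had no DMSO peak within 4237 bp. SDF2L1 encodes an ER-resident partner of the BiP cycle. Its region (chr22:21637665-21637795) lay 4.57 kb upstream of the start, with 12, 18 and 12 tags. In these 3 regions p42 had the highest count, but the Poisson intervals overlap in each (12.2 to 30.9 tags for 20 and 4.80 to 18.4 for 10, the widest gap).

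The other 3 had even counts across the lines. HSP90B1 encodes GRP94, the ER member of the HSP90 family, and its region (chr12:103936502-103936931) lay inside the gene, 40 bp from an internal start, with 8 tags in each line. SYVN1 encodes HRD1, the ubiquitin ligase of ER-associated degradation, and its region (chr11:65122514-65122828) had 13, 12 and 11 tags. That region lay 0.891 kb inside the 3′ end of SYVN1, was closer to the start of MRPL49 and was 81 bp from a DMSO peak. SEC24D encodes a COPII coat protein, and its region was 45.1 kb from a start, nearer to METTL14, with 11, 10 and 10 tags. At 20 kb 5 of the 27 genes had a region, and at 100 kb 7.

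For targets of the integrated stress response, the ATF4 arm, the share was near that of all genes. Of 45 listed genes, 2 (4.44%, interval 1.23 to 14.8%, against 4.09% of all) had a gained region within 50 kb, and this interval leaves room for a share well above or below that of all genes. DDIT4, which encodes an inhibitor of mTORC1, had a region 3.04 kb past its 3′ end with 11 tags in EV, 12 in p42 and 9 in p30. WARS1, the tryptophanyl-tRNA synthetase gene, had the region past its 3′ end named above, with 6, 12 and 9 tags. No gained region lay within 50 kb of any of 19 AP-1 and partner genes or of 6 C/EBP family genes (0 of 6, with CEBPG and DDIT3 also in the list of 45). The intervals reach 16.8% for the AP-1 list and 39.0% for the C/EBP list, so neither is resolved from the 4.09% of all genes. The ATF4 core was in 0 of the 13 gained regions near listed genes, a number too small to set against the 6.98% of all gained regions.

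Of 26 genes of N-glycosylation, the process that tunicamycin blocks, 2 (7.69%, interval 2.14 to 24.1%) had a gained region within 50 kb, against 4.09% of all genes. ALG5 encodes the enzyme that makes dolichyl-phosphate glucose, and its region lay 557 bp from an internal start with 8, 7 and 6 tags. STT3B encodes a catalytic subunit of oligosaccharyltransferase, and its region was 49.5 kb from a start with 10, 6 and 8 tags. Of 24 inflammatory genes 1 (4.17%, interval 0.739 to 20.2%) had a region, CCL5, a chemokine gene, at 41.2 kb with 7, 6 and 7 tags, and that window held the AP-1 letters. Of 16 myeloid transcription factor genes 2 (12.5%, interval 3.50 to 36.0%) had one. The intervals of these 3 lists all hold the share of all genes. GATA2, a regulator of blood stem cells, had 17, 14 and 15 tags at a region 436 bp upstream of its start, with a DMSO peak 106 bp away, and GFI1, a repressor needed in granulocytes, had 11, 8 and 13 tags at a region 49.9 kb from a start, with a DMSO peak 138 bp away.

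As a check of the cell type, the promoters of 7 myeloid marker genes all held a peak in all 6 lists and those of 3 erythroid genes in none. Promoters of 3 epithelial genes and of 2 of 3 T lymphocyte genes also held peaks in every list, so an open promoter does not by itself separate cell types here.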

How the data were processed

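ATAC-seq of 12 libraries, 2 replicates in each of 6 conditions, was analysed from peak lists. The submitters' processing notes name Trim Galore 0.6.6, Bowtie2 2.4.4, Picard and MACS2, with hg38 as the build. Replicates were pooled before the authors called peaks. A Tn5 shift and a filter on mitochondrial reads are not given in the sources used here. The deposited fold is the ratio of summit pileup to local background within 1 list, and the deposited −log10 p and −log10 q refer to that background too. None is normalized between conditions.

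Fold and −log10 p were solved together for the tags at the summit, and a count with an error of under 0.0001 in −log10 p was found for 100% of peaks. Depth was estimated from the lowest background, a genome of 2700000000 bp and the shortest peak. The estimate takes the shortest peak as the length of a tag, which was not checked. Regions were merged at 1 bp. Distances run from the middle of a region to GENCODE 44 starts. Motifs are exact letters within 100 bp of the centre summit. Shares have 95% Wilson intervals. The merging rule, tag solution and motif search were tested on simulated data.

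The named regions are the 10 with the highest lowest −log10 q, the 3 strongest with ATF4, AP-1, C/EBP, CRE, UPRE or ERSE letters, those near listed genes, and the 3 strongest with 1 DMSO peak. Further ATF4 sites printed, and regions at NFE2L1, AIMP2 and, in the closing section, near other starts, lie outside this rule and were chosen after their values were seen. The regions, the gene lists and the motifs were chosen with earlier results of these data known. Python 3.11.15, numpy 2.4.6, pandas 2.3.3, scipy 1.17.1, pysam 0.24.0 and statsmodels 0.14.6 were used. Alternatives are given in the closing section. One of the named regions is not reported here. Read counts per replicate and ChIP-seq were not used here.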

Additional observations from a re-analysis of the deposited data

How the results depend on the processing

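With 1 pooled list per condition, leaving out a replicate could not be run, and no replicate spread limits any value here. No paired analysis was possible because each list pools its replicates and no test was made. Of 11 alternative rules, 7 kept the number of regions gained in all 3 lines, 716, within 1.5 times (487 to 829), and 7 did so for the 1793 lost regions (1217 to 1781). With −log10 q of at least 5 in all 3 lists there were 27 gained and 28 lost. With the rule applied to 2 lines there were 2931 gained without EV, 5195 without p42 and 3784 without p30, and 9868, 7610 and 6515 lost, since fewer lists have to agree. With the same number of peaks from every list, 829 regions were gained and 1217 lost. The promoter share was 9.36% at 500 bp and 23.3% at 2000 bp. The share with the ATF4 core was 5.17% within 50 bp of the summit, where that of all regions was 0.728%, a ratio of 7.10, and the share with AP-1 letters was 8.38% there, against 6.62%. At 150 bp the ratio for the ATF4 core was 4.73. With any base at the sixth position of the core, an alternative added after the data were seen, the share was 15.9%, against 4.56% of all regions. In the other 5 alternatives for the ATF4 core, of which 2 were added after the data were seen, the share stayed between 6.39% and 8.21%. Protein-coding genes with a gained region numbered 457 within 20 kb and 1370 within 100 kb, where 817 were found within 50 kb.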

Other observations

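The sixth base of the ATF4 core was varied after the core was seen to be frequent. With T in that place (TGATGTAA) the letters were in 3.63% of the gained regions (26 of 716) and 0.898% of all regions. With A (TGATGAAA) they were in 5.17% (37 of 716), against 1.71%, and with G (TGATGGAA) in 0.978% (7 of 716), against 0.785%. Any of the 4 was in 15.9% of the gained regions (114 of 716, interval 13.4 to 18.8%), in 2.96% of the lost regions and in 4.80% of those gained in 1 line alone. In the 50 gained regions with the core itself, the base before it was T in 2 sites (4%, against 11.3% of the sites in all regions) and C in 21 (42%, against 27.4%). The base after it was A in 2 sites (4%, against 18.9%) and T in 24 (48%, against 37.5%).

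Among the 92 gained regions within 1000 bp of a protein-coding start, the strongest after NFE2L1 were at SNX22, a sorting nexin gene (19, 17 and 18 tags in EV, p42 and p30), MEX3B, an RNA-binding protein gene (25, 21 and 22), PCDH7, a protocadherin gene (20, 17 and 20), and CALCOCO2, an autophagy receptor gene (9, 7 and 7). A DMSO peak lay 144 bp from the region at SNX22, 97 bp from that at MEX3B and 107 bp from that at PCDH7, while the nearest to that at CALCOCO2 was 3523 bp away. The region with the highest tags in the p30 list, 30, was at BRD2, a bromodomain gene, with 27 in EV and 23 in p42 and a DMSO peak 1613 bp away.

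The position past a 3′ end that HSPA5, HERPUD1, DDIT4 and WARS1 share was not frequent in the set. Within 5 kb downstream of the end of a protein-coding gene lay 37 gained regions (5.17%, interval 3.77 to 7.04%), against 4.94% of all regions and 4.07% of the lost ones. By chromosome, the share of the gained regions was 1.29 times that of all regions on chromosome 17 (27 regions) and 0.487 times on chromosome 19 (8 regions). These genes, bases and chromosomes were picked with their values known.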
